A study of Drosophila melanogaster with 2 samples.

Results

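The genes described here encode the ion channels of *Drosophila* and some of their auxiliary subunits. These 44 genes in 12 classes were chosen by name and not by their signal, though with earlier results of these data known. They cover the potassium, sodium, calcium, chloride, transient receptor potential (TRP) and pickpocket channels, and the calcium release channels of the endoplasmic reticulum. A probe set annotated with a single gene symbol was found for 41 of the 44, out of 10845 genes named in this way on the array. *KCNQ* and *qvr* matched no probe set of a single symbol and were not analysed here, and *Trpml* shares its only probe set with another gene. The 41 genes were read by 67 probe sets, 17 genes by more than 1.

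Ion channels let ions cross membranes down their electrochemical gradient. Voltage-gated sodium and calcium channels drive the rise of an action potential and the calcium entry that follows, and potassium channels end it and set the resting potential. TRP and pickpocket channels open to heat, touch, chemicals or light in sensory neurons, and release channels pass stored calcium into the cytoplasm, as in muscle contraction. In a late embryo most of these genes are known from the nervous system, the sensory organs and the muscles.

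RNA was taken from *yw* embryos, whose stock is mutant for the pigmentation genes *yellow* and *white*, and from homozygous *mid* embryos, mutant for the gene of the T-box transcription factor Midline. Embryos had developed at 25 °C until 16 h after egg laying, the *mid* homozygotes were told apart by the GFP balancer CyOact-GFP, and each genotype was hybridized to 1 Affymetrix array. The labels do not name the *mid* allele. They give *yw* for the other array, which the study's Results call wild type, whereas its Methods mention RNA of heterozygous and homozygous *mid* embryos. Stock background and genotype cannot be told apart. Since each genotype had 1 array, replicates are lacking and p-values are not given. As RNA came from whole embryos, fewer cells of a type and less RNA per cell cannot be told apart in any value below.

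The values were MAS5 signals, linear intensities that summarize the probe pairs of a probe set. Their median was 150 for *yw* and 43.3 for *mid*, and 9 spiked control probe sets gave 2.32 to 3.39 times more signal in *yw*. The arrays were therefore brought to a common median, and all signals below are on the scale of the *yw* array unless called deposited. Signals up to 97.6, the 40th percentile over the pooled signals, were taken as dim and set to that floor for a fold change. A gene was measured if it passed the floor on at least 1 array, and it was called higher or lower past 2-fold. Where a gene was dim on 1 array, its fold change is only a bound. For a gene with several probe sets the brightest was used. Probe sets that read the same gene differed in log2 fold change with a pooled SD of 0.53 over 287 genes, which serves as a scale of technical disagreement but is no replicate error. The ratio of 3′ to 5′ signal, a measure of RNA integrity, was higher on the *mid* array for 3 of 4 control transcripts. It was 28.8 in *yw* and 53.5 in *mid* for actin, 50.8 and 63.3 for eIF-4a, and 21.6 and 17.3 for GAPDH. Signal was thus strongly biased to the 3′ end on both arrays. The part of this bias in the values below was not tested.

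Of the 41 ion channel genes, 29 (70.7%) were measured, where 70.9% of all named genes were. In the *mid* embryos 4 of the 29 passed 2-fold upwards, namely *slo*, *Irk3*, *RyR* and *TrpA1*, where 5.66% of all measured genes were higher. None of the 29 was more than 2-fold lower, where 4.5% of all measured genes were. The 4 are 13.8% of the measured ion channel genes. Of the other 25, 18 were above the floor on both arrays and within 2-fold, 4 passed the floor only on the *mid* array and 3 only on the *yw* array. Genes that passed on 1 array only had to differ in that direction, so the count of measured genes is no support for a direction.

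**Figure D1:**
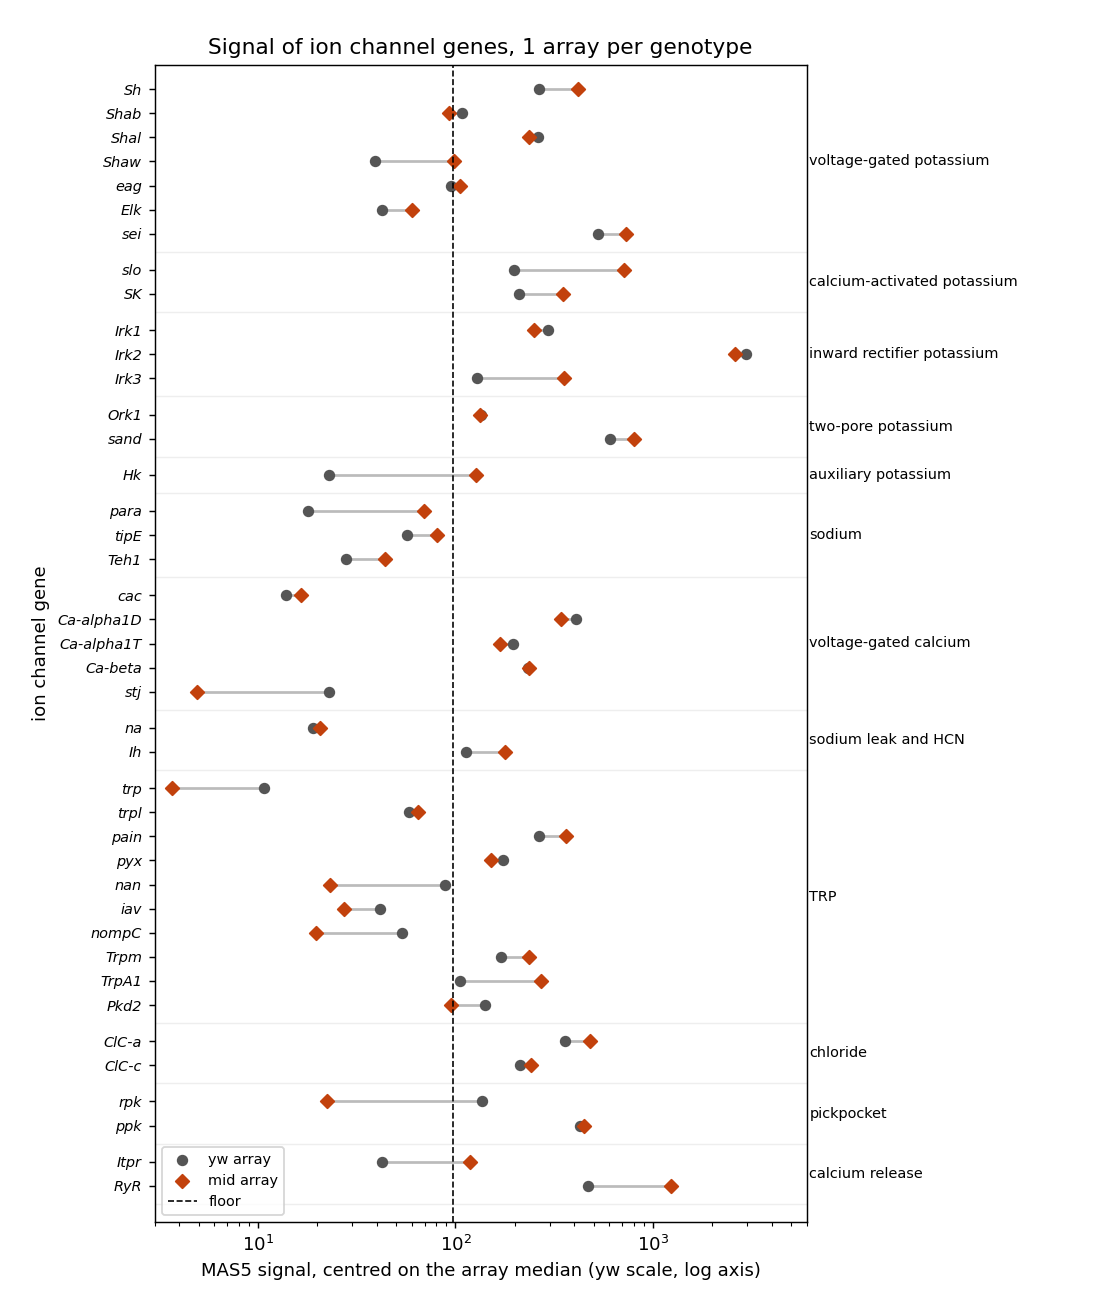
MAS5 signal of the 41 ion channel genes on the *yw* array (grey circles) and the *mid* array (orange diamonds), brought to a common median, on a log axis, grouped by channel class. The dashed line is the floor at 97.6, which 12 genes exceeded on neither array, and the long lines above it that run to the right belong to *slo*, *Irk3*, *RyR* and *TrpA1*.

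Calcium-activated potassium channels open when calcium enters the cell and so shorten action potentials and the bursts that follow. *slo* encodes the large-conductance channel of this kind, which acts in neurons and muscle, and its probe set 153878_at read 198 in the *yw* sample against 713 in *mid*. This was 3.61-fold higher in *mid* (log2 fold change 1.85), the largest change among the 29 measured channel genes and the 58th largest rise among 7685 measured genes. The deposited signals of *slo* were nearly equal, 198 and 206, so that its rise is relative to the rest of the array. *SK*, which encodes the small-conductance channel, read 210 and 349 by its brightest probe set (log2 fold change 0.74). Its second probe set read 191 and 251 (log2 fold change 0.39), another passed the floor only in *mid* (57.5 and 102) and the other 2 stayed below the floor. The brightest and the second probe set of *SK* thus read more on the *mid* array, neither by 2-fold. The probe set that was dim only in *yw* gave a bound, and the other 2 gave no direction.

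Inward rectifier potassium channels pass potassium more readily into the cell than out of it and hold the resting potential. *Irk3* had 1 probe set, 146449_at, which read 128 in *yw* and 353 in *mid*, a 2.75-fold rise (log2 fold change 1.46). Its paralogs were within 2-fold. *Irk1* read 294 and 250 (log2 fold change -0.24), and *Irk2* read 2952 and 2593 (log2 fold change -0.19), both smaller than the SD between probe sets. *Irk1* and *Irk2* each had a second probe set below the floor on both arrays, with 20.4 and 4.69 for *Irk1* and 30.1 and 48.2 for *Irk2*. The study listed *Irk2* and *Irk3* among wing development genes chosen on these same arrays, so the value of *Irk3* is not independent of that list.

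Voltage-gated potassium channels differ in how fast they open and inactivate. The 7 genes analysed of this class included 6 that were measured, and none of these was called. *Sh*, which encodes the rapidly inactivating Shaker channel, read 264 and 415 by its brightest probe set (1.57-fold, log2 fold change 0.65). The other probe sets of *Sh* spread on both sides of that value, with 181 and 388 (2.14-fold), 124 and 132 (1.06-fold) and a dim one with 56.3 and 24.6. *sei*, the *Drosophila* gene of the ERG channel family, read 529 and 732 (log2 fold change 0.47). *Shal*, which encodes an A-type channel of dendrites and cell bodies, read 261 and 235 (log2 fold change -0.15).

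The remaining genes of the class lay at or near the floor. *Shab*, which encodes a delayed rectifier, read 108 in *yw* and 92.7 in *mid*, and *eag*, which founded the ether-a-go-go channel family, read 94.5 and 105, so each passed the floor on 1 array by a small margin. *Shaw*, a delayed rectifier of the Kv3 family, read 39.0 and 98.8, just above the floor in *mid*. *Elk*, of the ether-a-go-go family, was below the floor on both arrays (42.7 and 60.5). *Hk*, which encodes the beta subunit of the Shaker channel, was read by a pair of probe sets, the brighter with 22.8 and 127 and the dimmer with 21.3 and 18.5. Its bound was 1.3-fold higher in *mid*, and the dimmer probe set stayed below the floor on both arrays.

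Two-pore potassium channels carry a leak current and need no voltage step to open. *Ork1* read 134 in *yw* and 133 in *mid*, and *sand*, known from sleep control in adult flies, read 608 and 801 (log2 fold change 0.40). Neither differed by more than the SD between probe sets. Over all potassium channel classes, 14 of 15 analysed genes were measured, 2 were called higher (*slo* and *Irk3*) and none lower. Of all named genes 70.9% were measured, and of these 5.66% were called higher and 4.5% lower. On the log2 scale 9 of the 14 potassium channel genes (64.3%) lay above 0 and 5 below 0, where 54.8% of all measured genes lay above 0. Of the 14, 3 passed the floor only in *mid* and 1 only in *yw*, which fixed their direction.

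None of the 3 sodium channel genes passed the floor on either array. *para*, which encodes the main voltage-gated sodium channel of the fly, read 17.9 in *yw* and 69.5 in *mid*. Its auxiliary subunit genes *tipE* and *Teh1* read 56.6 and 80.2, and 27.8 and 43.8, and a second probe set of *tipE* went the other way with 40.9 and 15.3. No fold or direction is given for signals this dim.

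Voltage-gated calcium channels were close to equal in both genotypes where they could be measured. *Ca-alpha1D*, which encodes the L-type channel used in muscle, read 405 and 343 (log2 fold change -0.24). *Ca-alpha1T*, which encodes the T-type channel, read 195 and 168 (log2 fold change -0.22), and *Ca-beta*, which encodes a cytoplasmic subunit, read 232 and 234 (log2 fold change 0.01). Another probe set of *Ca-beta* passed the floor only in *mid* (38.5 and 125). *cac*, which encodes the channel of presynaptic terminals, and *stj*, which encodes an alpha2-delta subunit, were below the floor on both arrays, with 13.8 and 16.5 for *cac* and 22.8 and 4.89 for *stj*. Among the channels that set pacemaker and resting currents, *Ih*, which encodes the hyperpolarization-activated channel, read 114 and 178 (log2 fold change 0.65), and the sodium leak channel gene *na* was below the floor (19.1 and 20.5).

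The calcium release channels both read more in *mid*. *RyR* encodes the ryanodine receptor, which releases calcium from the sarcoplasmic reticulum in muscle contraction. Its probe set 143650_at read 470 in *yw* and 1234 in *mid*, a 2.63-fold rise (log2 fold change 1.39), and its deposited signals were 470 and 356. *Itpr*, which encodes the inositol trisphosphate receptor, read 42.7 and 119, so it was at the floor in *yw* and had a bound of 1.22-fold higher in *mid*.

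**Figure D2:**
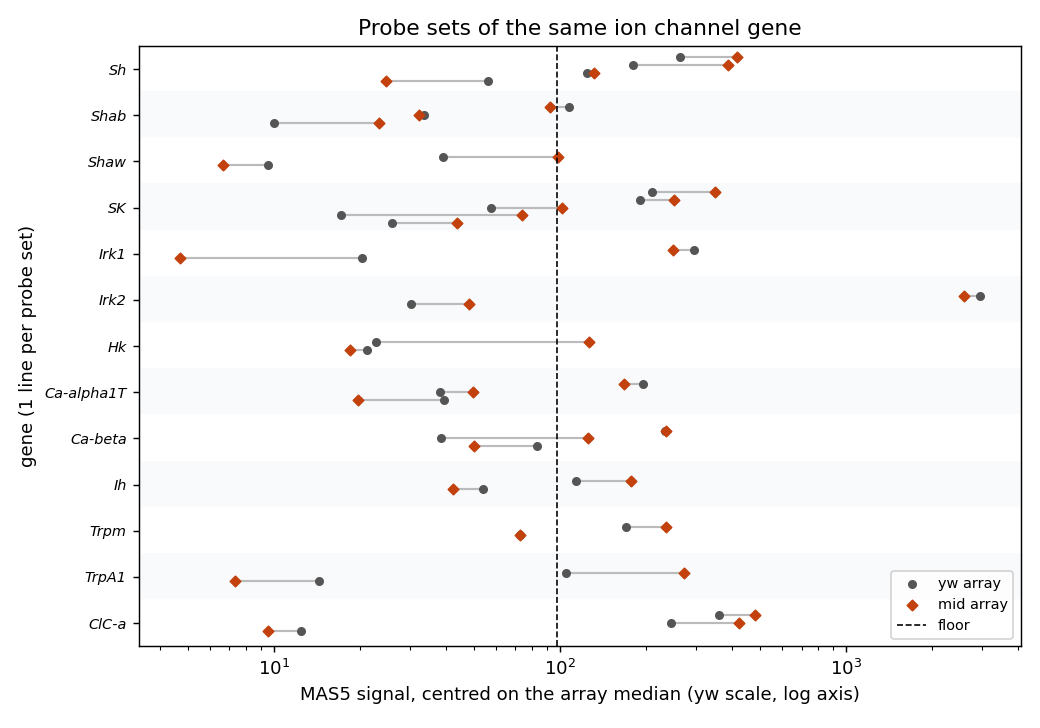
Signal on the *yw* array (grey circles) and the *mid* array (orange diamonds) for every probe set of the 13 ion channel genes that had more than 1 probe set and at least 1 above the floor (dashed line at 97.6), on a log axis. The brightest probe set of *Sh*, *SK*, *TrpA1* and *ClC-a* read more in *mid*, whereas that of *Irk2* read 2952 in *yw* and 2593 in *mid*, and 9 of the 13 genes had just 1 probe set above the floor.

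Among the TRP genes, *TrpA1* was higher in *mid* and the others were within 2-fold or dim. *TrpA1* encodes a channel that opens to heat and irritants in sensory neurons. Its probe set 148430_at read 105 in *yw*, close to the floor, against 272 in *mid*, a 2.59-fold rise (log2 fold change 1.37). Its other probe set was below the floor on both arrays with 14.4 and 7.31. *pain*, a channel gene of larval nociceptors, read 266 and 361 (log2 fold change 0.44). *Trpm*, whose product conducts divalent cations such as magnesium and zinc, read 170 and 235 (log2 fold change 0.47) and its dimmer probe set stayed below the floor, at 72.5 and 72.4. *pyx*, another heat-gated channel gene, read 174 and 151 (log2 fold change -0.21). *Pkd2*, a polycystin gene, read 142 in *yw* and 94.6 in *mid*, just below the floor, with a bound of 1.45-fold lower.

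The TRP genes of hearing, touch and vision did not pass the floor on either array. *nan* and *iav*, whose products form the channel of the stretch-sensitive chordotonal organs, read 89.0 and 23.1, and 41.4 and 27.3. *nompC*, which encodes a touch channel, read 53.3 and 19.6 by its brighter probe set. These 3 read less on the *mid* array, but below the floor they have no order. The phototransduction genes read 10.7 and 3.67 for *trp* and 58.5 and 64.3 for *trpl*. Of 8 listed photoreceptor markers, 3 were analysed and they differed in signal. *Arr1* was above the floor on both arrays (350 and 375), *Arr2* passed it only in *mid* (59.4 and 107), and *inaC* was below it. Of 6 marker genes of ciliated sensory neurons, 3 were measured, none was called, and *nompA*, needed to attach sensory endings, read 167 and 205.

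*ppk*, which encodes a pickpocket channel subunit of the dendritic sensory neurons under the larval skin, read 429 and 449 (log2 fold change 0.06). *rpk*, a gene of the same family known from early embryos, read 136 in *yw* and 22.3 in *mid*. It was at the floor in *mid* and its bound was 1.39-fold lower. The ClC genes, which encode chloride channels of the cell surface and chloride transporters of internal membranes, were within 2-fold, with *ClC-a* at 359 and 482 (log2 fold change 0.43) and *ClC-c* at 212 and 242 (log2 fold change 0.19). A second probe set of *ClC-a* read 245 and 422 (log2 fold change 0.78), and the remaining one was dim on both arrays.

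The measured ion channel genes had a median log2 fold change of 0.19, where the median over all measured genes was 0.06. With scaling on the median signal of the spiked controls these medians were -0.09 for the ion channel genes and -0.34 for all measured genes. Over the 22 genes above the floor on both arrays it was 0.41, where it was 0.08 over all 6376 such genes. The middle 50% of values of all 29 measured ion channel genes ran from -0.15 to 0.47, against -0.29 to 0.41 over all measured genes. Of the 29, 19 (65.5%) lay above 0 and 10 below, where 54.8% of all measured genes lay above 0. The split was 12 and 17 with scaling on the median signal of the spiked controls. With values as deposited it was 1 and 29 (of 30 measured). The medians over all measured genes were then also below 0, at -0.34 with the spiked controls and -1.52 as deposited. Of the 22 genes above the floor on both arrays, 15 had a log2 fold change smaller than the SD between probe sets. Among all named genes above the floor on both arrays, 4377 of 6376 did.

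**Figure D3:**
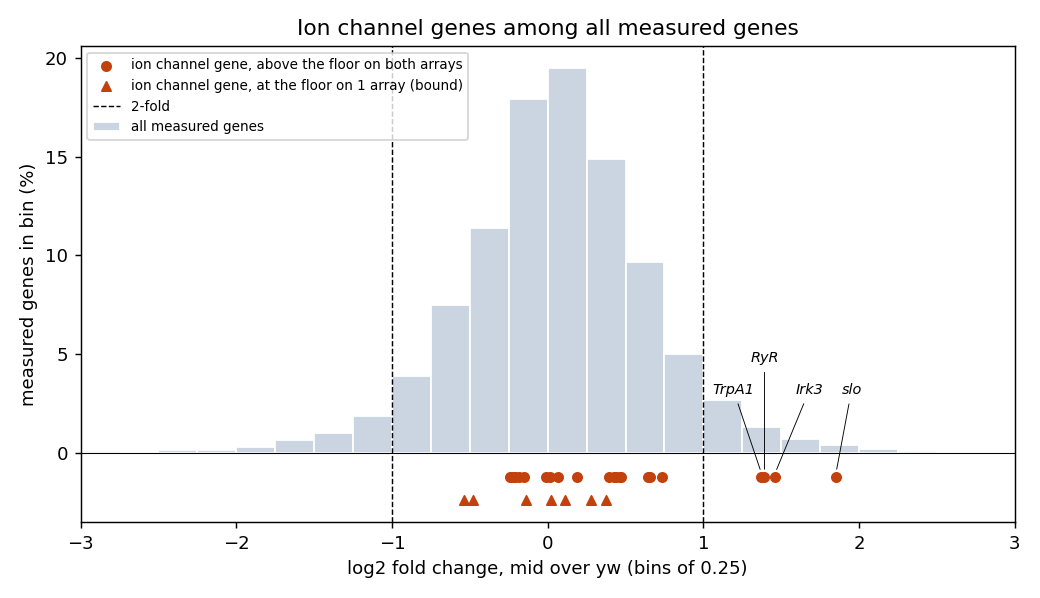
Share of all 7685 measured genes (bars, in %) by log2 fold change of *mid* over *yw* in bins of 0.25, with the 29 measured ion channel genes as points under the axis. Circles are genes above the floor on both arrays, triangles are bounds and dashed lines mark 2-fold. The axis leaves out 22 genes beyond a log2 fold change of 3 either way. *slo*, *Irk3*, *RyR* and *TrpA1* stand apart to the right of 2-fold, and the next channel gene, *SK*, lies at 0.74.

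Of 66 other genes of channels and channel regulators, 55 were analysed and 29 (52.7%) were measured, where 70.9% of all named genes were. Among the 29, 1 (3.45%) was called higher and none lower, where 5.66% and 4.5% of all measured genes were. Their median log2 fold change was 0.24, or -0.17 with scaling on the medians of the spiked controls, where all measured genes had -0.34. The gene called was *Teh4*, a paralog of *tipE*, with 177 in *yw* and 375 in *mid* (2.11-fold). With *Teh4* included, 25 of the 29 (86.2%) lay above 0 on the log2 scale, where 54.8% of all measured genes did. Of the 29, 5 passed the floor only on the *mid* array and so had to lie above 0. Of the 28 not called, with these 5 bounds included, 24 lay above 0 and 4 below 0. Among these *Rdl*, which encodes the GABA-gated chloride channel, read 951 and 1710 (log2 fold change 0.85), *unc79*, which encodes a partner of the sodium leak channel, read 240 and 419 (log2 fold change 0.81), and *subdued*, an anoctamin channel gene, read 106 and 198 (log2 fold change 0.89). *SERCA*, which encodes the pump that refills the stores emptied by *RyR*, read 6235 and 8613 (log2 fold change 0.47). The store-operated channel gene *Orai* read 317 and 530 (log2 fold change 0.74), whereas its sensor gene *Stim* read 1122 and 997 (log2 fold change -0.17). The other 3 below 0 were *MCU*, which encodes the mitochondrial calcium uniporter (800 and 593, log2 fold change -0.43), *Axs* (302 and 226, log2 fold change -0.42) and the potassium channel gene *SLO2* (127 and 99.3, log2 fold change -0.35). Of 21 further pickpocket genes, 7 (33.3%) were measured. All 7 were within 2-fold or had a bound below it, from *ppk30* at 0.00 to *ppk18* at 0.32 on the log2 scale.

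Most measured markers of tissues that use these channels also read more on the centred *mid* array. Over all measured genes 54.8% lay above 0 and 5.66% were called higher. With equal medians of the spiked controls, however, the median log2 fold change was 0.19 for neurons, 0.23 for glia and -0.07 for muscle. It was -0.34 for all measured genes with that scaling. With values as deposited the median was below 0 for each list. Of the listed markers, 11 of 16 neuronal, 6 of 7 glial and 8 of 12 muscle genes were analysed. Of 11 neuronal markers, 8 were measured and 2 were called higher, *elav* (110 and 245) and *fne* (432 and 1113), with a median log2 fold change of 0.63. The summed signal of the 11 was 5578 in *yw* and 8737 in *mid*, and *brp*, *onecut* and *VGlut* were below the floor on both arrays. The neuronal marker *Appl* went the other way (273 and 230). Of 6 glial markers all were measured and 2 were called higher, *Gli* (321 and 838) and *wrapper* (214 and 441), with summed signals of 1850 and 2916, while *repo* (357 and 232) and *moody* (143 and 128) read less in *mid*. Of 8 muscle markers, 7 were measured and 2 were called higher, the giant sarcomere protein genes *sls* (543 and 1293) and *bt* (1385 and 2855). The muscle sum was 123652 and 142656, as the abundant *Mlc2* was nearly equal (56224 and 57336), and *Mlp60A* was below the floor. The part of these tissue markers in the values of *slo*, *RyR*, *Irk3* and *TrpA1* was not tested.

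**Figure D4:**
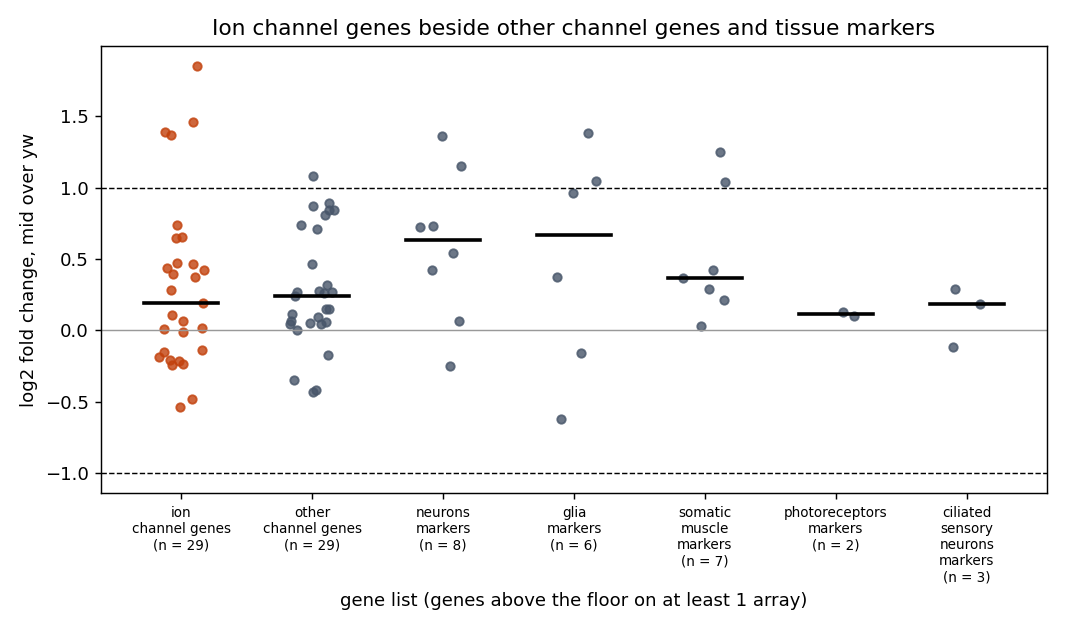
Log2 fold change of *mid* over *yw* for each measured gene (points) of the ion channel genes, the other channel genes and 5 lists of tissue markers, with the median of each list as a bar, a solid line at 0 and dashed lines at 2-fold. The ion channel genes, of which 4 lie above 2-fold, have a median of 0.190. The neuronal, glial and muscle marker lists have higher medians of 0.63, 0.67 and 0.37. The photoreceptor and ciliated sensory neuron lists have lower medians of 0.115 and 0.185.

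The 4 calls rest on how the arrays were brought to a common scale. With quantile normalisation, loess, an equal mean of the central values or the median ratio of the spiked controls, all 4 remained past 2-fold, while *RyR* (1.94-fold) and *TrpA1* (1.91-fold) fell just under it when the median signals of the spiked controls were made equal. With the floor at the 60th percentile *slo*, *Irk3* and *TrpA1* were at the floor in *yw*. The bound of *slo* was 3.12-fold, and the bounds of *Irk3* and *TrpA1* were under 2-fold. As deposited, only *slo*, *Hk* and *para* of the 41 genes had a higher signal on the *mid* array, whose signals were lower throughout. *slo* was past 2-fold under every setting except values as deposited, with 2.66-fold as its lowest.

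**Figure D5:**
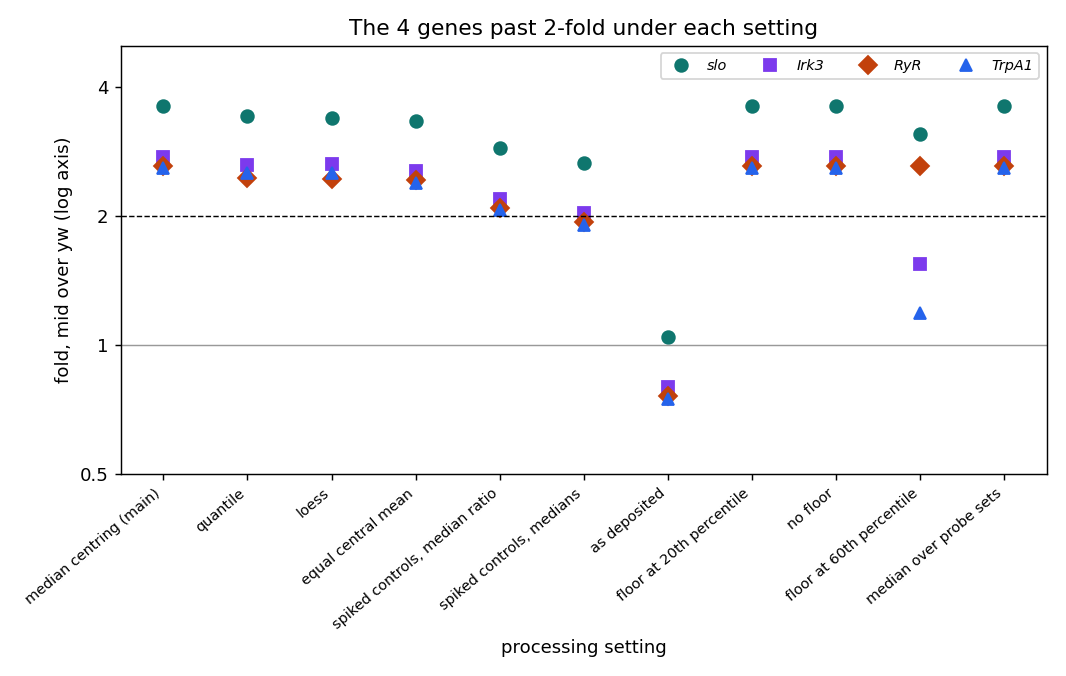
Fold of *mid* over *yw* (log axis) for *slo*, *Irk3*, *RyR* and *TrpA1* under each scaling, floor and probe set rule, with a dashed line at 2-fold and a solid line at equal signal. *slo* stays at 2.66-fold or more except as deposited, where the arrays have different medians.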

How the data were processed

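The authors deposited 1 linear signal intensity per probe set and array, made with MAS5 according to the submitters' processing notes. Which version and scaling target were used is not given in the sources used here. Of 14010 probe sets, 12444 had 1 gene symbol in an annotation table of the array, 327 had several and 1239 had none. Of the 12444, 12394 matched by gene ID a RefSeq table of *Drosophila* genes, used for names only. Listed symbols were matched as written, otherwise through a synonym that only 1 gene carries. Coordinates are left out because the build behind the values is not named.

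Each array was centred on its median, signals up to the pooled 40th percentile were raised to it, and the log2 of the *mid* to *yw* ratio was taken. Genes were called by size alone, past 2-fold, although the Methods ask for a p-value too. The number of arrays limits the precision. Every one of the 44 genes is accounted for, and other channel genes are given as counts with values for those past 2-fold. Other channel genes within 2-fold and marker genes named with values were chosen after their values were seen. The genes and lists were chosen with earlier results of these data known. The list of other channel genes named *rpk* a second time by a synonym, which was dropped. The computation was tested on simulated data. Alternatives were 5 scalings, 3 floors, the median over probe sets and folds of 1.5 and 3. The median ratio of the spiked controls was added after the values were seen. Scripts ran in Python 3.11.15 with pandas 2.3.3, numpy 2.4.6, matplotlib 3.10.9 and, for loess, statsmodels 0.14.6.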

Additional observations from a re-analysis of the deposited data

How the results depend on the processing

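The number of ion channel genes more than 2-fold higher in *mid* was 4, and it was 0 with values as deposited, 2 with equal medians of the spiked controls (*slo* and *Irk3*), 2 with the floor at the 60th percentile (*slo* and *RyR*), 8 with the floor at the 20th percentile and 8 with none, 7 at 1.5-fold and 1 at 3-fold (*slo*). Over all measured genes the shares higher in these settings were 0.226%, 2.14%, 4.31%, 9.06%, 11.2%, 16.6% and 1.31%, in that order. At the 20th percentile *Hk*, *Itpr*, *para* and *Shaw* joined the 4. The number lower in *mid* was 0, and it was 21 as deposited, 2 with the floor at the 20th percentile (*nan* and *rpk*) and 5 with none, where 76.2%, 9.33% and 13.0% of all measured genes were lower. The median log2 fold change of the measured ion channel genes was 0.19, and -1.34 as deposited, where the median of all measured genes shifted by -1.58. The 60th percentile floor left 18 measured genes.

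Of all calls among measured genes, 55.7% were higher in *mid* with median centring, 43.4% when the mean of the central 96% of signals was equalised, 22.2% with the median ratio of the spiked controls, 15.3% with their medians and 0.295% as deposited. The shift of the median of all measured genes was -0.11, -0.30 and -0.40 for the middle 3. After such shifts were removed, 259 values of single ion channel genes under the alternatives moved by less than the SD between probe sets. Another 14 moved by more, and no called gene changed sign. Scaling by a constant factor returns genes well above the floor near their main value once the shift is removed. The median over probe sets cannot move a gene with 1 probe set. These counts are therefore no support for the calls. Without that removal *Irk3*, *RyR* and *TrpA1* were lower in *mid* as deposited (0.795-, 0.758- and 0.747-fold). No paired analysis was possible because each genotype had 1 array, and no array could be left out.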

Other observations

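*Trpml*, which encodes a lysosomal cation channel, shares its only probe set with a second gene symbol, with 298 on the *yw* array and 290 on the other, so neither gene can be told from the other there. Sensory genes differed in how bright their probe sets were, with *pain*, *pyx*, *ppk* and *ppk26* (461 and 555) above the floor on both arrays. *ppk23*, known from chemosensory neurons of adult flies, read 84.9 and 8.6 and *ppk17* read 43.8 and 88.1, both below the floor.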
